A study of Homo sapiens with 24 samples.

Results

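Growth factor receptor tyrosine kinases were described by 10 genes: EGFR, ERBB2, ERBB3, IGF1R, INSR, FGFR1, FGFR2, FGFR3, MET and PDGFRA. They were chosen by gene symbol, matched to the Ensembl identifiers of the exon count tables, and all 10 were found among the 29794 genes counted. All 10 passed the filter on low counts in both batches, where 14348 genes (batch 1) and 14054 genes (batch 2) were tested. The cells were Flp-In T-REx 293, a line derived from human embryonic kidney HEK293 cells, transduced with a lentiviral vector that carried a microRNA (miRNA) hairpin within an intron of GFP under a doxycycline-inducible promoter. Control cells carried the same vector without a hairpin (empty vector), and control and miRNA cells alike were selected in geneticin (1 mg/mL, 6 days) and given doxycycline (1 µg/mL, 7 days) before polyadenylated RNA was sequenced. In batch 1, cells with miR-1, with miR-122 and with the empty vector gave 2 libraries each. In batch 2, cells with the empty vector and with 5 miRNAs gave 3 libraries each, the miRNAs being miR-133a, miR-155 and a group of 3 with a shared seed (miR-373, miR-372 and miR-302a). Replicates were transduced and kept separately, per the study's methods. The control of every comparison with a miRNA was the empty vector of the same batch, so the 2 comparisons of batch 1 share their controls, as do the 5 of batch 2.

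Receptor tyrosine kinases are membrane proteins that bind a growth factor outside the cell, pair up, and phosphorylate tyrosines inside it. Adaptor proteins then dock on these tyrosines and pass the signal to the RAS-ERK cascade and to PI3K and AKT, which drive growth, survival and metabolism. A miRNA guides an Argonaute protein to mRNAs whose 3′UTR matches its seed, and such mRNAs are translated less and degraded faster. EGFR, IGF1R and FGFR1 have been described as miR-133a targets, and MET as a miR-1 target.

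Library depth, as reads counted over exons, ran from 20153452 to 21595191 in batch 1 and from 13047400 to 35040778 in batch 2. The 7 HEK293 markers found in the tables were above 1 CPM in every library of both batches (summed level 1410 to 1880 CPM, reads scaled to a common library size), while 4 hepatocyte markers summed to at most 0.542 CPM, 5 skeletal muscle markers to at most 3.04, 4 blood markers to at most 12.7 and 5 fibroblast markers to at most 28.0 CPM. Most of the HEK293 sum was VIM, at 908 to 1310 CPM, while PAX2 was at 5.28 to 13.8 and NEFM at 1.26 to 4.42 CPM. In RNA from a whole culture, fewer cells with a transcript and less of it per cell cannot be told apart. Replicates of a group varied beyond counting error in all 21 pairs (chi-square per degree of freedom 1.79 to 33.6 across genes). The libraries farthest from their own group over all genes were miR-372 replicate 2, miR-155 replicate 2 and miR-302a replicate 2, with an SD of log2 deviations of 0.215, 0.195 and 0.189 against 0.0989 to 0.166 in the other libraries of batch 2.

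The mature sequences below, from RefSeq (GRCh38.p14), are shown because the seed (bases 2 to 8, in capitals) sets which 3′UTR letters were searched for in the receptors. The last 3 have the same seed.
miR-1: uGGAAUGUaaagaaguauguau
miR-122: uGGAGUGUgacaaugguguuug
miR-133a: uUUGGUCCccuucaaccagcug
miR-155: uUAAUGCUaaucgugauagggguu
miR-302a: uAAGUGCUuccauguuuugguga
miR-372: aAAGUGCUgcgacauuugagcgu
miR-373: gAAGUGCUucgauuuuggggugu

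The longest annotated 3′UTR of each receptor was searched on the transcribed strand for the match to the whole seed followed by A (8mer), to the whole seed (7mer-m8), or to bases 2 to 7 followed by A (7mer-A1). EGFR and IGF1R were the receptors with a match to every seed, in 3′UTRs of 6011 and 7088 bases that were at least as long as those of 94.2% and 96.3% of the tested genes. The IGF1R match to miR-1 and the EGFR match to miR-122 were of the 7mer-A1 type alone. ERBB2, FGFR2 and FGFR3 held no match to any of the seeds in this 3′UTR, although another annotated 3′UTR added 1 match of ERBB2 to miR-133a, and of FGFR2 1 match to miR-1 and 1 to the shared seed. The matches shown for EGFR, MET and for IGF1R with miR-122 are 8mer or 7mer-m8 matches for differences described below, and those of ERBB3 and of IGF1R with miR-155 are 8mers of receptors that did not pass with the miRNA concerned, with the matching letters in capitals, all on the plus strand of GRCh37, and shared-seed standing for miR-373, miR-372 and miR-302a.
EGFR, miR-155 8mer at chr7:55275713-55275720: agttgtaagtgagtcacattgtAGCATTAA
EGFR, miR-155 7mer-m8 at chr7:55274573-55274579: attttacaggtgcgaatgacagtAGCATTA
EGFR, shared-seed 8mer at chr7:55274521-55274528: tctgccttgagtcatctattcaAGCACTTA
EGFR, miR-133a 7mer-m8 at chr7:55273360-55273366: aatccagactctttcgatacccaGGACCAA
EGFR, miR-133a 7mer-m8 at chr7:55274176-55274182: ccacattggattcatcagcatttGGACCAA
EGFR, miR-1 7mer-m8 at chr7:55278704-55278710: atgctttaagaaacatttgttatACATTCC
MET, miR-1 7mer-m8 at chr7:116436677-116436683: ggtgtcattcacccattaggtaaACATTCC
MET, miR-1 7mer-m8 at chr7:116436992-116436998: agcccttataaatttttgtatagACATTCC
ERBB3, shared-seed 8mer at chr12:56496353-56496360: atattgattactatcataattcAGCACTTA
IGF1R, miR-122 7mer-m8 at chr15:99501368-99501374: catttgagagacacgctggcgacACACTCC
IGF1R, miR-155 8mer at chr15:99504891-99504898: ggcacatcatggaattgatgtgAGCATTAA

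In the empty vector cells, MET, the receptor of hepatocyte growth factor, had the highest level per length of the 10 receptors and PDGFRA, a receptor of platelet-derived growth factors, the lowest. Per kb of exons, MET was at 22.4 ± 1.21 CPM (SD, n = 2) in batch 1 and 19.7 ± 0.886 CPM (SD, n = 3) in batch 2. ERBB2, FGFR1, FGFR3, FGFR2, IGF1R and INSR followed, from 15.8 ± 0.0381 down to 7.17 ± 0.481 CPM per kb in batch 1 and from 13.7 ± 1.32 down to 6.98 ± 0.37 in batch 2. ERBB2 (13.7 ± 1.32) and FGFR1 (13.7 ± 1.06) had the same mean CPM per kb in batch 2, and FGFR3 followed with 12.3 ± 0.578, whose SD range overlapped both. ERBB3 and EGFR were lower, at 3.25 ± 0.0848 and 2.72 ± 0.235 CPM per kb in batch 1 and 3.34 ± 0.293 and 2.43 ± 0.402 in batch 2. PDGFRA stood at 0.287 CPM per kb in batch 1 and 0.181 in batch 2, on 8 to 23 reads per empty vector library.

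**Figure D1:**
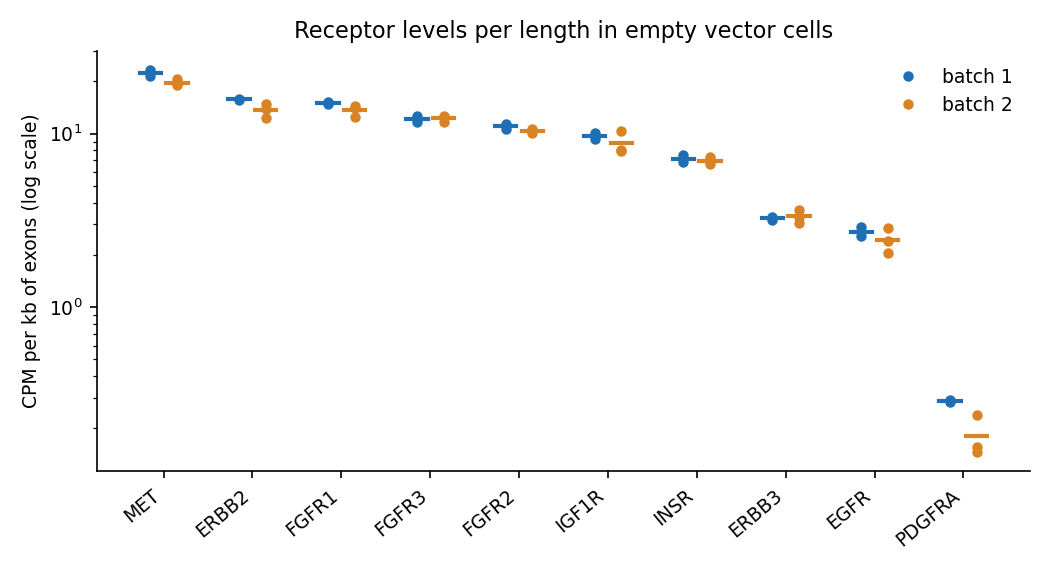
Level of each receptor in the empty vector cells, in CPM per kb of exons on a log axis, for batch 1 (blue, 2 libraries) and batch 2 (orange, 3 libraries). Points are libraries and bars are means; MET is at the top (22.4 and 19.7), ERBB3 and EGFR lie between 2.43 and 3.34, and PDGFRA is at the bottom (0.287 and 0.181).

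EGFR (ENSG00000146648.11, chromosome 7, 55086710 to 55279321, plus strand), the receptor of epidermal growth factor and TGFA, was the receptor that fell with the largest number of miRNAs. It passed the test with miR-1, miR-155, miR-302a and miR-372, was lower on average with miR-133a and miR-373 without passing, and did not differ detectably with miR-122. An antisense gene, EGFR-AS1, overlaps it, and reads were counted by strand. In batch 1, its level was 34.7 and 30.7 CPM in the empty vector libraries, 19.8 and 23.1 CPM with miR-1, and 33.1 and 32.3 CPM with miR-122. Both miR-1 libraries lay below both controls, and the miR-122 libraries lay between the controls. With miR-1 EGFR fell by 0.61 on the log2 scale (SE 0.08, 95% interval -0.78 to -0.44, edgeR quasi-likelihood adjusted p = 1.6e-05), which is 1.53-fold lower. With miR-122 the log2 fold change was 0.00 (95% interval -0.16 to 0.15, adjusted p = 0.99). The call with miR-1 was kept in each of the 6 fits that left out 1 library and in the 9 other fits.

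In batch 2, EGFR was at 29.0, 34.1 and 24.5 CPM in the empty vector libraries. With miR-155 it was at 14.3, 8.11 and 14.2 CPM. With miR-302a it was at 17.3, 16.1 and 18.7 CPM. All of these lie below the lowest control, and miR-155 replicate 2 is the lowest library of the batch. With miR-372 it was at 17.4, 11.1 and 24.0 CPM. With miR-373 it was at 17.1, 19.9 and 23.5 CPM. With miR-133a it was at 17.5, 17.4 and 20.4 CPM. Each of the 15 miRNA libraries of batch 2 was thus below each of the 3 control libraries, although miR-372 replicate 3, at 24.0 CPM, came close to the lowest control. With miR-155 EGFR fell by 1.25 on the log2 scale (SE 0.223, 95% interval -1.72 to -0.79, edgeR adjusted p = 0.0014), 2.38-fold. It fell by 0.75 with miR-302a (SE 0.216, adjusted p = 0.037) and by 0.71 with miR-372 (SE 0.213, adjusted p = 0.037). The log2 fold change was -0.67 with miR-133a (95% interval -1.12 to -0.21, adjusted p = 0.081) and -0.52 with miR-373 (95% interval -0.96 to -0.08, adjusted p = 0.19), neither past the threshold.

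The libraries of batch 2 that were lowest in EGFR also stood out in a property measured over all genes. In each library of batch 2, the log2 level relative to the control mean was fitted on log2 exon length over all genes tested, and the slope per doubling of length was between -0.0126 and 0.0252 in the 3 control libraries and between -0.147 and -0.0129 in the 15 miRNA libraries. It was lowest in miR-155 replicate 2 (-0.147) and miR-372 replicate 2 (-0.144), the same libraries that were lowest in EGFR, whose exons sum to 12009 bases. Within miR-302a the order differed, since replicate 2 had the slope nearest the controls (-0.0293) and the lowest EGFR level (16.1 CPM). Every miRNA slope lay below every control slope, so the slope and the presence of a miRNA cannot be fully told apart. With this slope as a covariate, a fit added after the data were seen, EGFR was at -0.78 with miR-155 (edgeR adjusted p = 0.00723), at -0.31 with miR-302a (adjusted p = 0.245), at -0.31 with miR-372 (adjusted p = 0.231), at -0.34 with miR-133a (adjusted p = 0.2) and at -0.29 with miR-373 (adjusted p = 0.206) on the log2 scale. The miR-155 call was also kept in each of the 18 fits that left out 1 library (log2 fold change -1.38 to -1.04). The miR-302a call was lost without empty vector replicate 1 (-0.76, adjusted p = 0.092), without empty vector replicate 2 (-0.62, adjusted p = 0.166) and without miR-302a replicate 1, 2 or 3 (-0.75, -0.70 and -0.81). The miR-372 call was lost without empty vector replicate 1 (-0.72) or 2 (-0.58) and without miR-372 replicate 1 (-0.69) or 2 (-0.48, adjusted p = 0.129). For miR-133a, EGFR passed in 6 of the 9 other fits. Among them were the DESeq2 test (adjusted p = 0.0394), edgeR's likelihood ratio test (0.0421), a fit without a filter on low counts (0.00055) and a fit of the compared groups alone (0.000575). It passed in 3 of the 18 fits without 1 library: miR-155 replicate 2 (edgeR adjusted p = 0.0372), miR-372 replicate 2 (0.022) or miR-372 replicate 3 (0.0359). These libraries belong to neither group and enter through the shared spread. For miR-373, EGFR passed in 3 of the 9 other fits and in 0 of the 18 without 1 library. It passed without a filter on low counts (edgeR adjusted p = 0.0148) and in a fit of the compared groups alone (0.0216). The third was the fit without the 3 libraries farthest from their groups (0.00938).

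**Figure D2:**
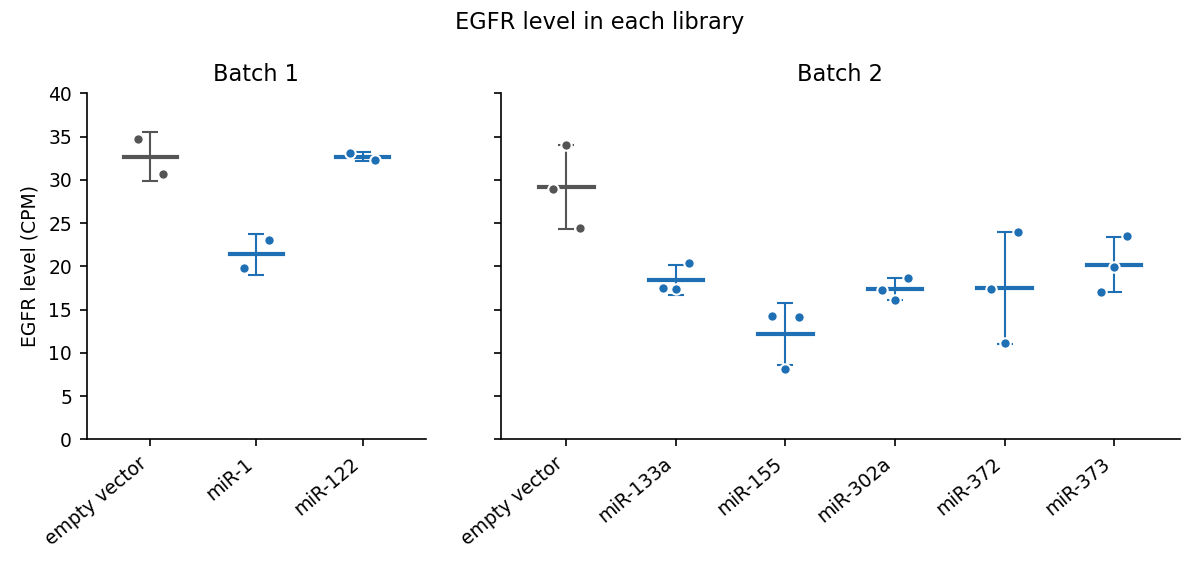
EGFR level in each library in CPM, by group, for batch 1 (left, 2 libraries a group) and batch 2 (right, 3 libraries a group), on 1 axis that starts at 0. Points are libraries, thick bars are means and error bars are SDs; all miRNA libraries of batch 2 lie below the lowest control (24.5 CPM), with miR-155 lowest (8.11 to 14.3 CPM), and in batch 1 only miR-1 lies below its controls.

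Over the 10 receptors, 5 passed the test with miR-1, 3 lower and 2 higher, where 24.5% of all genes tested were called (13.7% lower and 10.8% higher). With miR-122, 2 receptors passed, both lower, where 5.92% of all genes were called (4.06% lower and 1.86% higher). With miR-155, 3 passed, all lower, where 7.63% of all genes were called (4.81% lower and 2.82% higher). EGFR alone passed with miR-302a, where 7.88% of all genes were called (4.85% lower and 3.02% higher), and with miR-372, where 11.4% were called (6.56% lower and 4.82% higher). In edgeR's quasi-likelihood test 0 receptors passed with miR-133a, where 5.34% of all genes were called (3.97% lower and 1.37% higher), and 0 with miR-373, where 5.13% were called (3.30% lower and 1.83% higher). At an unadjusted p under 0.05 there were 5 receptors with miR-133a and 3 with miR-373. The share of all genes at that threshold is not given, so these counts have no background to be read against. The DESeq2 test called 2 receptors with miR-133a (EGFR and FGFR3) and 0 with miR-373, where it called 1021 and 895 of 14054 genes tested. The median log2 fold change of the 10 receptors was -0.30 with miR-155, -0.20 with miR-133a, -0.14 with miR-302a, -0.13 with miR-372, -0.04 with miR-122, -0.01 with miR-1 and 0.00 with miR-373, while the median of all genes tested lay within 0.006 of 0 in each comparison. With miR-155 every receptor had a log2 fold change below 0. With the length slope as a covariate, 5 of the 10 were below 0 and 5 above with miR-155, and the medians were -0.01 with miR-155, -0.05 with miR-133a, 0.00 with miR-302a, 0.01 with miR-372, 0.01 with miR-122, 0.01 with miR-1 and 0.05 with miR-373.

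A second description, with no test, is whether every miRNA library lay on one side of every control library. With miR-155 this held for 5 receptors below (16.2% of all genes tested) and 0 above (14.5%). With miR-133a it held for 4 below (17.9%) and 1 above (17.5%), with miR-372 for 4 below (15.9%) and 0 above (14.2%), with miR-302a for 2 below (15.2%) and 2 above (14.3%), and with miR-373 for 2 below (14.3%) and 2 above (12.7%). In batch 1, with 2 libraries a group, it held for 3 below (31.6%) and 4 above (29.7%) with miR-1, and for 5 below (23.6%) and 1 above (24.0%) with miR-122. The counts with miR-155, miR-133a, miR-372 and miR-122 include receptors such as INSR, IGF1R or PDGFRA that did not pass the test.

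**Figure D3:**
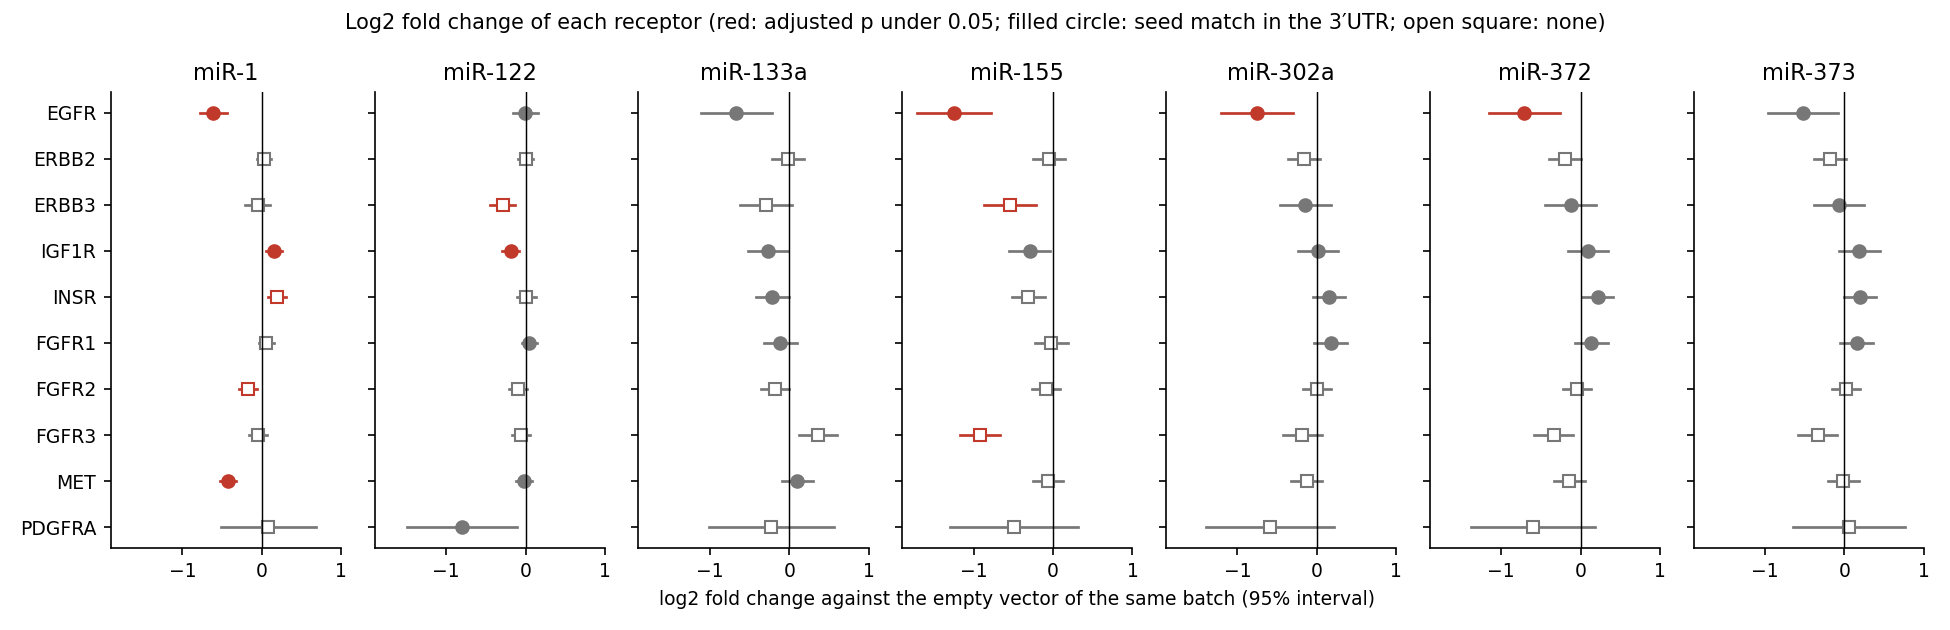
Log2 fold change of each receptor against the empty vector of its batch, one panel per miRNA, with 95% intervals. Red marks an edgeR adjusted p under 0.05, filled circles a receptor with a seed match for that miRNA in its longest 3′UTR and open squares one without; EGFR with miR-155 (-1.25) and FGFR3 with miR-155 (-0.92) are the lowest called values, and PDGFRA has the widest intervals.

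ERBB3 (ENSG00000065361.10, chromosome 12, 56470583 to 56497289) binds neuregulins, has little kinase activity of its own and signals through partners such as ERBB2, the family member with no known ligand. ERBB3 fell with miR-155 and with miR-122, and its 3′UTR held a match to neither seed. In batch 2 it was at 22.1, 26.4 and 24.0 CPM in the controls and at 18.3, 14.8 and 16.6 CPM with miR-155. All miR-155 libraries lay below all controls, and ERBB3 fell by 0.54 on the log2 scale (SE 0.158, edgeR adjusted p = 0.041). That call was lost in 8 of 18 fits without 1 library (log2 fold change -0.62 to -0.47, adjusted p at most 0.166): without any 1 of the 3 controls, any 1 of the 3 miR-155 libraries, miR-133a replicate 2 or miR-373 replicate 1. With the length slope as a covariate it was at -0.34 (adjusted p = 0.297).

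In batch 1, ERBB3 was at 24.0 and 23.1 CPM in the controls and at 19.9 and 18.7 CPM with miR-122, without overlap. It fell by 0.29 on the log2 scale (SE 0.0759, edgeR adjusted p = 0.027). That call was lost in the DESeq2 test (adjusted p = 0.228) and without empty vector replicate 1 or either miR-122 library (log2 fold change -0.33 to -0.24 over the 6 fits without 1 library), and with the length slope as a covariate it was at -0.27 (adjusted p = 0.0627). For the 3 miRNAs whose seed matches an 8mer in the ERBB3 3′UTR, the log2 fold changes were -0.15 with miR-302a (95% interval -0.47 to 0.18), -0.12 with miR-372 (-0.44 to 0.20) and -0.07 with miR-373 (-0.39 to 0.25), and the libraries overlapped the controls. ERBB2 (ENSG00000141736.9, chromosome 17, 37844167 to 37886679) passed in no comparison. Its log2 fold changes were between -0.20 (miR-372, 95% interval -0.40 to 0.00) and 0.03 (miR-1, -0.07 to 0.12).

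IGF1R (ENSG00000140443.9, chromosome 15, 99191768 to 99507759) and INSR (ENSG00000171105.9, chromosome 19, 7112266 to 7294425), the receptors of insulin-like growth factors and of insulin, are related receptors that can pair with each other. Both rose with miR-1, and IGF1R fell with miR-122. In batch 1, IGF1R was at 121 and 111 CPM in the controls, 125 and 132 CPM with miR-1, and 101 and 102 CPM with miR-122. The 3 groups did not overlap, with miR-1 highest and miR-122 lowest. The log2 fold change was 0.15 with miR-1 (SE 0.0485, edgeR adjusted p = 0.027) and -0.19 with miR-122 (SE 0.0495, adjusted p = 0.026). INSR was at 70.0 and 63.7 CPM in the controls and at 75.0 and 77.0 CPM with miR-1, a log2 fold change of 0.19 (SE 0.0547, adjusted p = 0.018).

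These batch 1 changes were small, and the DESeq2 test called none of them. With miR-1, both IGF1R (log2 fold change 0.09 to 0.22 over the 6 fits without 1 library) and INSR (0.12 to 0.26) were no longer called without empty vector replicate 2, miR-1 replicate 1 or miR-1 replicate 2. With miR-122, the IGF1R call was lost without empty vector replicate 1 or either miR-122 library (-0.25 to -0.12) and with the length slope as a covariate.

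In batch 2, IGF1R was at 95.3, 123 and 96.4 CPM in the controls, at 92.5, 85.7 and 83.5 CPM with miR-133a, and at 94.9, 75.3 and 86.0 CPM with miR-155. Both miRNA groups lay below the controls, though miR-155 replicate 1 was within 1 CPM of the lowest control. The log2 fold changes were -0.27 with miR-133a (95% interval -0.52 to -0.01, edgeR adjusted p = 0.22) and -0.30 with miR-155 (-0.55 to -0.04, adjusted p = 0.14), so neither passed, although the IGF1R 3′UTR held a miR-133a 7mer-m8 and a miR-155 8mer match. INSR was at 64.5, 68.7 and 61.8 CPM in the controls, at 59.6, 53.6 and 55.0 CPM with miR-133a, and at 52.3, 48.9 and 55.9 CPM with miR-155. INSR had log2 fold changes of -0.21 (adjusted p = 0.22) and -0.31 (adjusted p = 0.058), again without overlap and without passing. With the length slope as a covariate, IGF1R was at -0.09 with miR-133a and -0.03 with miR-155, and INSR at -0.11 and -0.15, none past the threshold. With miR-133a, IGF1R passed in a fit of the compared groups alone (edgeR adjusted p = 0.0379). It also passed without the 3 libraries farthest from their groups (0.0409). INSR with miR-133a passed in the fit of the compared groups alone (0.0454). INSR with miR-155 passed in the DESeq2 test (adjusted p = 0.036), in edgeR's likelihood ratio test (0.0366), without a filter on low counts (0.0398), and without miR-372 replicate 2 (adjusted p = 0.0245) or miR-372 replicate 3 (0.0292).

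Both receptors hold matches to the shared seed, and neither had a log2 fold change below 0 with it. INSR had log2 fold changes of 0.16 with miR-302a, 0.21 with miR-372 and 0.20 with miR-373, and IGF1R of 0.01, 0.09 and 0.19, none past the threshold. INSR passed with all 3 when the length slope was a covariate, higher (0.29, 0.35 and 0.27, edgeR adjusted p = 0.0377, 0.0107 and 0.0298), and IGF1R with miR-372 (0.33) and miR-373 (0.31). INSR with miR-372 also passed without miR-372 replicate 2 (0.31, adjusted p = 0.0404).

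FGFR1, FGFR2 and FGFR3 bind fibroblast growth factors. FGFR3 (ENSG00000068078.13, chromosome 4, 1795020 to 1810599) fell with miR-155 and FGFR2 with miR-1, and neither held a match to the seed concerned in its longest 3′UTR. FGFR3 was at 51.6, 55.2 and 56.6 CPM in the controls of batch 2 and at 32.7, 23.6 and 30.2 CPM with miR-155. Every miR-155 library was far below every control, and FGFR3 fell by 0.92 on the log2 scale (SE 0.121, 95% interval -1.17 to -0.66, edgeR adjusted p = 6.6e-05), 1.89-fold. The call was kept in all 18 fits without 1 library (-1.01 to -0.79), and in the 9 other fits, among them that with the length slope as a covariate (-0.76, adjusted p = 0.000533). The annotation names 4 pseudogenes of FGFR3, and the authors' filter on mapping quality drops reads that align equally well to 2 places.

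With miR-133a FGFR3 was at 69.4, 64.2 and 76.2 CPM, above every control. Its log2 fold change was 0.36 (95% interval 0.12 to 0.60) and missed the threshold in the quasi-likelihood test (edgeR adjusted p = 0.078), while it passed in the DESeq2 test (adjusted p = 0.0415), with the length slope as a covariate (0.46, adjusted p = 0.0106), and without miR-155 replicate 2 or miR-372 replicate 2. With the 3 same-seed miRNAs FGFR3 was at 50.9, 42.0 and 51.4 CPM (miR-302a), 45.4, 37.1 and 46.6 CPM (miR-372), and 41.5, 39.9 and 47.5 CPM (miR-373). All 9 libraries were below the lowest control, but the log2 fold changes of -0.18, -0.34 and -0.34 did not pass (adjusted p = 0.37, 0.071 and 0.11). With miR-372 FGFR3 passed without miR-155 replicate 2 (-0.33, edgeR adjusted p = 0.0345), in edgeR's likelihood ratio test (0.0457) and without a filter on low counts (0.0329). With miR-373 FGFR3 passed in a fit of the compared groups alone (0.0248) and without the 3 libraries farthest from their groups (0.00648). Neither passed with the length slope as a covariate (-0.196 and -0.265).

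FGFR2 (ENSG00000066468.16, chromosome 10, 123237846 to 123357972) was at 74.8 and 70.7 CPM in the controls of batch 1 and at 62.1 and 67.2 CPM with miR-1. The libraries did not overlap, and FGFR2 fell by 0.17 on the log2 scale (SE 0.0547, edgeR adjusted p = 0.028). The call was lost in the DESeq2 test (adjusted p = 0.14) and without empty vector replicate 1 or miR-1 replicate 1 (-0.22 to -0.11 over the 6 fits). With miR-133a all FGFR2 libraries lay below all controls, without passing (-0.18, 95% interval -0.357 to -0.007, edgeR adjusted p = 0.23). With the length slope as a covariate that value was -0.104. FGFR1 (ENSG00000077782.15, chromosome 8, 38257733 to 38326352) passed in no comparison, and its log2 fold changes were between -0.11 (miR-133a, 95% interval -0.32 to 0.10) and 0.18 (miR-302a, -0.03 to 0.39). It held 2 matches to the miR-133a seed, a 7mer-m8 and a 7mer-A1. FGFR1 was called with the length slope as a covariate, higher, for miR-302a (0.33, adjusted p = 0.0156) and miR-372 (0.29, adjusted p = 0.0272).

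MET (ENSG00000105976.10, chromosome 7, 116312250 to 116438431) fell with miR-1 and with no other miRNA passed in the fit of all libraries. It was at 161 and 149 CPM in the controls, at 115 CPM in both miR-1 libraries, and at 147 and 158 CPM with miR-122. The miR-1 libraries lay below all others of the batch. MET fell by 0.43 on the log2 scale (SE 0.0484, 95% interval -0.53 to -0.33, edgeR adjusted p = 2.7e-06), 1.35-fold, and the call was kept without each of the 6 libraries (-0.48 to -0.37) and in the 9 other fits. With miR-122 the log2 fold change was -0.02 (95% interval -0.12 to 0.08) although the MET 3′UTR held a miR-122 7mer-m8 match. In batch 2 the log2 fold changes of MET were between -0.14 (miR-372) and 0.10 (miR-133a, 95% interval -0.10 to 0.29), with a miR-133a 7mer-m8 match present. With miR-302a MET was at -0.13 and passed without miR-302a replicate 2 (-0.27, edgeR adjusted p = 0.0344), 1 of the 3 libraries farthest from their groups, and without all 3 of these (-0.28, adjusted p = 0.0139). PDGFRA (ENSG00000134853.7, chromosome 4, 55095447 to 55164412) was counted at 13 to 26 reads per library in batch 1 and 3 to 32 in batch 2. At that depth its 95% intervals against the empty vector were at least as wide as -0.52 to 0.68 (miR-1), so only a large difference could be seen. Its lowest log2 fold change was -0.80 with miR-122 (95% interval -1.49 to -0.10, edgeR adjusted p = 0.18), and another annotated gene overlaps it on the same strand. Annotated genes also overlap ERBB2 (1), ERBB3 (1), IGF1R (2), INSR (1) and FGFR1 (2) on the same strand.

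**Figure D4:**
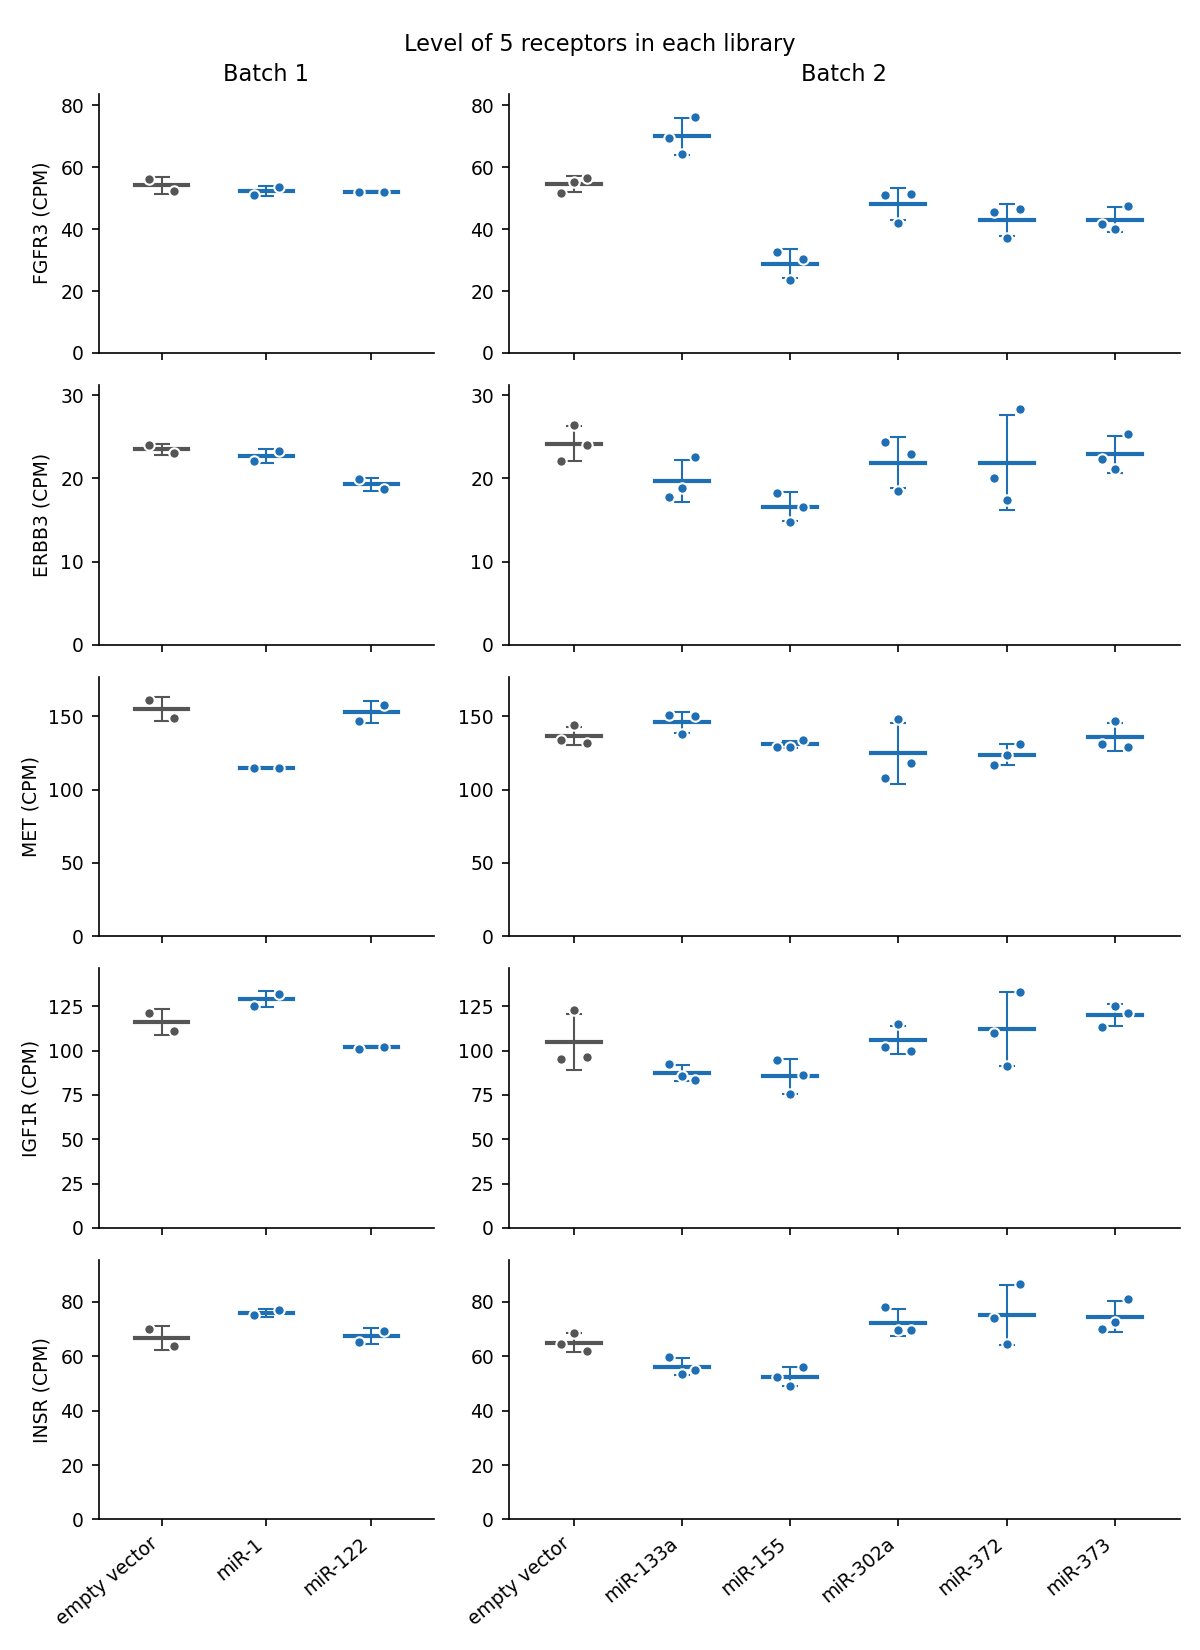
Levels of FGFR3, ERBB3, MET, IGF1R and INSR in each library in CPM, by group, for batch 1 (left, 2 libraries a group) and batch 2 (right, 3 libraries a group), with axes that start at 0. Points are libraries, thick bars are means and error bars are SDs; FGFR3 lies lowest with miR-155 (23.6 to 32.7 CPM) and highest with miR-133a (64.2 to 76.2 CPM), and MET lies lowest in batch 1 with miR-1 (115 CPM).

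The seeds of miR-1 and miR-122 differ at a single base, and the study used each miRNA as a negative control for the other. A direct comparison called 6 receptors between them, 2 lower and 4 higher with miR-1, where 31.2% of all genes were called (16.0% lower and 15.2% higher). The same 6 did not overlap between the groups, where 33.7% of all genes were lower and 33.6% higher in both miR-1 libraries. EGFR (-0.61, SE 0.0802, edgeR adjusted p = 1.1e-05) and MET (-0.41, SE 0.0485, adjusted p = 3.1e-06) were lower with miR-1. IGF1R (0.34, SE 0.0491, adjusted p = 3.1e-05), ERBB3 (0.23), INSR (0.17) and PDGFRA (0.88, adjusted p = 0.047) were higher with miR-1. The PDGFRA difference rested on 23 to 26 reads against 13 and 13, and it was lost in each of the 6 fits without 1 library (log2 fold change 0.77 to 0.99). ERBB3 was lost without either miR-1 or either miR-122 library (0.19 to 0.28 over the 6 fits), and INSR without either miR-1 library or miR-122 replicate 1 (0.13 to 0.22). EGFR, MET and IGF1R were kept in all 6.

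For the 3 miRNAs of shared seed, an F test of any difference among them called 0 receptors in edgeR (0 at an unadjusted p under 0.05), as did the DESeq2 test (0% of all genes tested in edgeR). For EGFR the F statistic was 0.682 (unadjusted p = 0.517), and its means were 17.4 ± 1.31, 17.5 ± 6.45 and 20.2 ± 3.19 CPM (SD, n = 3). The miR-372 libraries spread 2.16-fold between the highest and the lowest, so the test leaves small differences undecided.

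Set against the seed matches, receptors with a match did not always fall, and some that fell had none in the longest annotated 3′UTR. With miR-1, 2 of the 3 receptors with a match were called lower (EGFR and MET) and 1 higher (IGF1R). Of the 7 without, 1 was called lower (FGFR2), and another annotated 3′UTR of FGFR2 did hold 1 miR-1 match. Over all tested genes with an annotated 3′UTR, 26.4% of those with a miR-1 match and 10.6% of those without were called lower. With miR-155, 1 of 2 receptors with a match (EGFR) and 2 of 8 without (ERBB3 and FGFR3) were called lower, where the shares of all genes were 17.7% and 2.06%. With miR-122, 1 of 5 with a match (IGF1R) and 1 of 5 without (ERBB3) were called lower, against 10.2% and 2.3% of all genes. With miR-302a and miR-372, 1 of 5 with a match (EGFR) and 0 of 5 without were called lower, against 9.93% and 3.03% of all genes with miR-302a and 12.7% and 4.41% with miR-372. With miR-133a and with miR-373, 5 receptors held a match and 5 did not, and as given above no receptor was called, where 14.2% of all genes with a miR-133a match and 2.05% without, and 6.98% and 1.93% for miR-373, were called lower. The matches are letters in the annotated 3′UTR, and whether HEK293 cells use the whole of each 3′UTR was not measured here. Coding sequences were not searched. The study reported post-transcriptional repression of genes with predicted sites in the coding sequence for miR-155, miR-122, miR-372, miR-133a and miR-302a.

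The other genes of the pathway were taken from 7 lists of 140 genes in all, of which 117 were tested. With miR-1, 31 of the 117 were called (23 lower and 8 higher, 26.5%, beside 24.5% of all genes tested). With miR-155 the count was 13 (11.1% beside 7.63%), with miR-372 19 (16.2% beside 11.4%), with miR-302a 12 (10.3% beside 7.88%), with miR-373 11 (9.4% beside 5.13%), with miR-122 9 (7.69% beside 5.92%) and with miR-133a 5 (4.27% beside 5.34%). In each of these comparisons more of the called genes were lower than higher, as was also the case over all genes tested. The counts depended on the fit. With miR-1 the DESeq2 test called 12 of these pathway genes (9 lower and 3 higher), where it called 1785 of 14348 genes tested. Of 207 pathway counts from other fits over all comparisons, 159 stayed the same or close to the main count and 48 moved.

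Of the 15 ligand genes tested, 5 were called lower with miR-1 and none higher (median log2 fold change of the list -0.22, and 13.7% of all genes tested called lower and 10.8% higher). BTC, betacellulin, an EGFR ligand, fell with miR-1 from 1.62 ± 0.244 to 0.78 ± 0.217 CPM (SD, n = 2; log2 fold change -1.05, SE 0.304, edgeR adjusted p = 0.017). In batch 2 BTC fell from 2.14 ± 0.539 CPM to 0.876 ± 0.396 with miR-302a, 0.959 ± 0.188 with miR-372 and 0.711 ± 0.244 with miR-373 (SD, n = 3; adjusted p = 0.029, 0.027 and 0.013). TGFA, another EGFR ligand, fell from 14.6 ± 0.382 CPM to 9.58 ± 0.303 with miR-302a and 8.95 ± 1.63 with miR-372 (log2 fold changes -0.61 and -0.68).

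Of the 27 other receptor tyrosine kinases tested, 8 were called with miR-1 (7 lower and 1 higher, with a median log2 fold change of the list of 0.03). Beside this, 24.5% of all genes tested were called (13.7% lower and 10.8% higher). The largest changes in the list were those of NTRK2, a neurotrophin receptor, at -0.88 on the log2 scale, and DDR2, a collagen receptor, at -0.51. FGFR4, the remaining receptor of fibroblast growth factors, rose from 17.0 ± 0.361 CPM to 29.1 ± 6.66 with miR-302a, 28.7 ± 4.01 with miR-372 and 27.0 ± 3.2 with miR-373 (log2 fold changes 0.77, 0.76 and 0.68; edgeR adjusted p = 0.0029, 0.0024 and 0.0097). With miR-122 FGFR4 fell from 18.8 ± 0.612 to 14.9 ± 0.374 CPM (-0.33, adjusted p = 0.018). RET, the receptor of glial cell line-derived factors, fell with miR-155 from 3.15 ± 0.699 to 1.01 ± 0.492 CPM (-1.63, adjusted p = 0.0061). MERTK (-0.68) and EPHB4 (-0.36) fell with miR-133a.

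Among the 17 adaptors and docking proteins tested, FRS2, which docks on FGF receptors, fell with miR-133a (-0.38, edgeR adjusted p = 0.022), and GAB1 fell with the 3 miRNAs of shared seed (-0.36 with miR-302a, -0.49 with miR-372 and -0.40 with miR-373). IRS2, which docks on the insulin and IGF receptors, rose with miR-1 (0.34, adjusted p = 0.00016) and with miR-302a (0.36, adjusted p = 0.025). PLCG1, the phospholipase recruited by several receptors, fell with miR-1 (-0.23) and miR-155 (-0.44). In the RAS-ERK cascade, 4 of 13 genes were called with miR-1, 2 lower and 2 higher, beside 24.5% of all genes tested. The lower ones were the kinases BRAF (-0.39) and MAPK3 (-0.37). BRAF was also lower with miR-133a (-0.43, adjusted p = 0.018). RPS6KA3 (-0.56, adjusted p = 0.00027), a kinase downstream of ERK, fell with miR-155.

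In the PI3K-AKT branch, 17 genes were tested, and 3 were called with miR-302a, 5 with miR-372 and 4 with miR-373, all lower, beside 4.85%, 6.56% and 3.30% of all genes tested (median log2 fold changes of the list -0.18, -0.16 and -0.08). PIK3R3, a regulatory subunit of PI3K, fell from 47.2 ± 4.56 CPM to 26.1 ± 5.64, 27.8 ± 1.14 and 29.1 ± 2.59 with these miRNAs (log2 fold changes -0.85, -0.77 and -0.70). PIK3CA, a catalytic subunit, fell by a log2 fold change of -0.68, -0.61 and -0.56 (edgeR adjusted p = 0.0004, 0.00075 and 0.0028). FOXO3, a transcription factor that AKT holds inactive, fell with miR-122 (-0.27) and miR-155 (-0.45).

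Of the 15 negative regulators tested, 4 fell with miR-1 and 3 with miR-155 (median log2 fold changes of the list -0.10 and -0.23), beside 13.7% and 4.81% of all genes tested. CBL, a ubiquitin ligase that removes activated EGFR, fell with miR-155 from 62.8 ± 7.3 to 38.5 ± 6.41 CPM (-0.71, edgeR adjusted p = 0.0022). PTPRJ, a phosphatase, also fell with miR-155 (-0.70), and SPRY4 (-0.53) and SPRED1 (-0.31), inhibitors of the RAS-ERK cascade, fell with miR-1. Among the 13 ERK-responsive genes, which need not respond to ERK alone, 3 were called with miR-155, beside 7.63% of all genes tested. Of these, 2 were lower and 1 higher, and the median log2 fold change of the list was 0.01. CCND1 (-0.76, edgeR adjusted p = 1.7e-05) and MYC (-0.55, adjusted p = 0.006) fell with miR-155. DUSP5, an ERK phosphatase that ERK signalling induces, rose with miR-302a (0.89), miR-372 (1.14) and miR-373 (0.92), while MYC rose with miR-302a (0.45, adjusted p = 0.019) and ETV5 fell with miR-372 (-0.86, adjusted p = 0.049). With miR-1, MYC (-0.28) and PHLDA1 (-0.40) fell. ETV4 (0.399) and DUSP5 (0.305) rose with miR-122, and DUSP4 (0.349) rose with miR-133a.

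**Figure D5:**
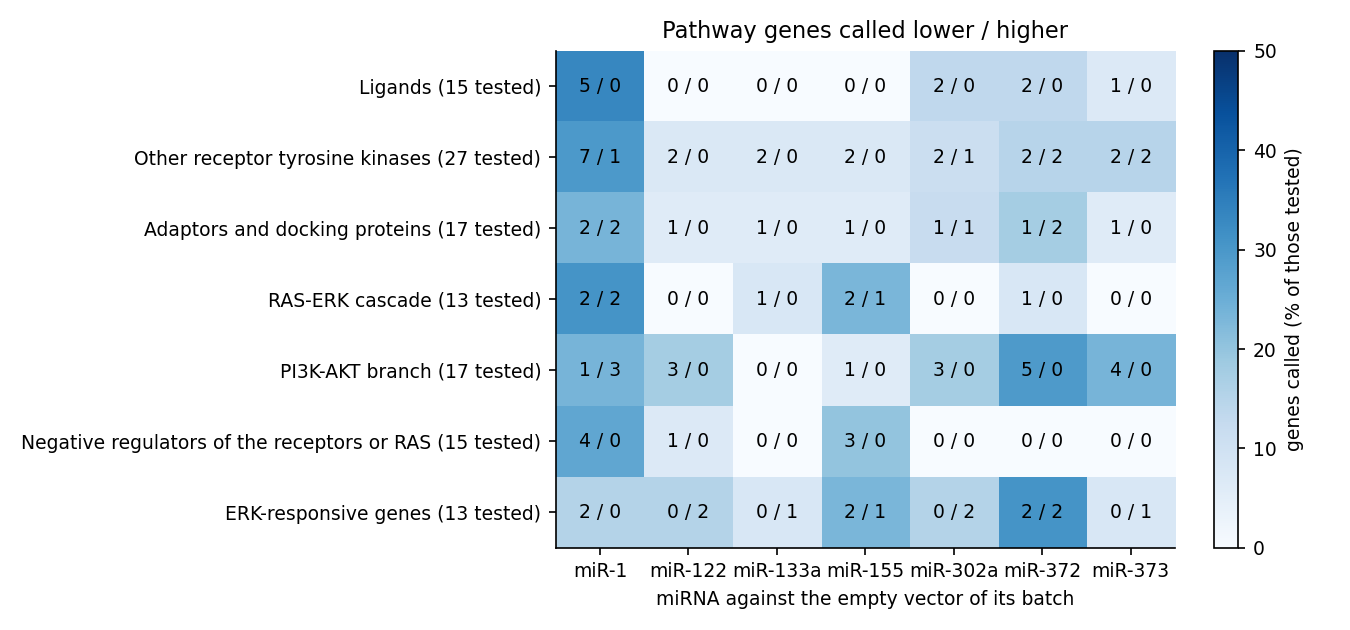
Number of genes called lower and higher (edgeR adjusted p under 0.05) in each pathway list for each miRNA against the empty vector of its batch, written lower / higher; shading is the percent of the tested genes of the list that were called. The ligands show 5 / 0 with miR-1, the PI3K-AKT branch 3 / 0 with miR-302a, 5 / 0 with miR-372 and 4 / 0 with miR-373, and the negative regulators 3 / 0 with miR-155.

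Over the 18 libraries of batch 2, the gene whose log2 CPM followed that of EGFR most closely was CR2 (Pearson r = 0.933), that of FGFR3 was JAG2 (r = 0.954), and that of ERBB3 was NID1 (r = 0.901). The next gene in each case had r = 0.92, 0.936 and 0.892, so these genes do not stand apart from others. The libraries share groups and the length slope given above, and the correlations are a description. JAG2, a Notch ligand, averaged 142 CPM in the controls, 94.9 CPM with miR-155 and 179 CPM with miR-133a, the same order as FGFR3.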

How the data were processed

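The authors trimmed RNA-seq reads with fastx_clipper, aligned them to hg19 with TopHat2 (2.1.1), and used featureCounts, strand-aware and with a mapping quality filter, on gene exons; the deposited values are raw counts per gene in a table for each batch, beside a feature length. They also deposited tables of their own comparisons (edgeR log2 fold changes, mean log2 CPM, likelihood ratios, q-values and p-values, on RNA-seq alone or with PRO-seq), which were not used. Genes were matched by identifier to GENCODE 44 on GRCh37, the same build as hg19, and 28543 of 29794 had a symbol.

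The analysis of counts used edgeR 4.0.16 under R 4.3.3: filterByExpr (minimum count 10), TMM factors, a quasi-likelihood fit of all groups of a batch, and Benjamini-Hochberg adjustment over all genes tested, with a threshold of 0.05. In the text, called means past this threshold, and genes rose or fell only where called. The prior count was 0.125, and an SE was obtained by dividing a log2 fold change by the square root of its F. CPM are TMM-scaled. Seed matches were sought in the longest annotated 3′UTR. The test was tried on simulated counts.

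The 10 receptors and the pathway lists were chosen with earlier results of these data known. All 10 receptors are given in every comparison. From each pathway list, at most the 2 called genes with the largest absolute log2 fold change were eligible to be named per comparison, and for each receptor called in batch 2 the gene with the highest Pearson correlation of log2(CPM + 1). A pathway gene that this rule allows is not reported here, although the counts include it. Alternatives were other size factors, DESeq2 1.42.0, edgeR's likelihood ratio test, other filters, only the compared groups, a replicate block, leaving out libraries, other site and length definitions and, added after the data were seen, a crossed block, leaving out the 3 libraries farthest from their groups, and the length slope as a covariate.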

Additional observations from a re-analysis of the deposited data

How the results depend on the processing

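The calls of EGFR and MET with miR-1, and of EGFR and FGFR3 with miR-155, were kept in every fit run. The number of receptors called moved as follows. With miR-155 it was 4 in the DESeq2 test, in the likelihood ratio test and without a filter on low counts, each with INSR added. It was 2 with the length slope as a covariate, without ERBB3. Over all genes, these fits called 1407 of 14054, 1432 of 14054, 1416 of 22466 and 659 of 14054 in this order. DESeq2 called 2 with miR-1, 0 with miR-122, 3 between the miRNAs of batch 1, and 2 with miR-133a. Over all genes it called 1785, 410 and 2542 of 14348 in batch 1 and 1021 of 14054 with miR-133a. The likelihood ratio test called 2 with miR-133a and 2 with miR-372, where it called 1032 and 1923 of all 14054 genes tested. Without a filter on low counts, 2 were called with miR-133a, 2 with miR-372 and 1 with miR-373. That fit called 945, 1762 and 777 of all 22466 genes tested. In a fit of only the groups compared, 4 were called with miR-133a, 0 with miR-372 and 2 with miR-373. Over all genes it called 2349 of 13581 with miR-133a, 811 of 13623 with miR-372 and 1060 of 13649 with miR-373. Without the 3 libraries farthest from their groups, 3 were called with miR-133a, 2 with miR-302a, 2 with miR-372 and 2 with miR-373. Calls also rose over all genes in that fit, to 2277, 3430, 2019 and 1695 of 14184. With the length slope as a covariate, 0 were called with miR-122, 1 with miR-133a, 2 with miR-302a, 3 with miR-372 and 2 with miR-373; those called with miR-302a and miR-372 were then INSR and FGFR1, and with miR-372 also IGF1R, all higher, and EGFR was not among them. Over all genes that fit called 1029 of 14348 with miR-122. In batch 2 it called 878 of 14054 with miR-133a, 1170 with miR-302a, 1444 with miR-372 and 1199 with miR-373. The cause of these shifts was not tested.

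Leaving out 1 library at a time, the count was 2 to 5 with miR-1, 0 to 2 with miR-122, 3 to 5 between the miRNAs of batch 1, 0 to 2 with miR-133a, 2 to 4 with miR-155, 0 to 1 with miR-302a, 0 to 2 with miR-372, 0 with miR-373 and 0 among the same-seed miRNAs. In batch 1 this leaves 1 library in a group, which is then assumed to vary like the others.

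Same-numbered libraries of a miRNA and its empty vector did not deviate together in batch 1 (correlation across genes -0.101 and -0.0689). In batch 2 no miRNA had all 3 correlations with its control above 0.1. Some single pairs did exceed 0.1, with 0.347, 0.209 and 0.0448 for miR-373 and 0.000106, 0.168 and -0.031 for miR-302a. The replicate numbers were not taken as a pairing of a miRNA with its control. The replicate block called 4 with miR-1, 1 with miR-122, 5 between them, 2 with miR-133a, 4 with miR-155, 1 with miR-302a, 2 with miR-372, 1 with miR-373 and 0 among the same-seed miRNAs. Over all genes the block called 2939, 656 and 3958 of 14348 in batch 1. In batch 2 it called 1308 of 14054 with miR-133a, 1663 with miR-155, 1644 with miR-302a, 2252 with miR-372 and 1122 with miR-373. With the block, EGFR (edgeR adjusted p = 0.0325) and FGFR3 (0.0126) passed with miR-133a and INSR (0.0328) with miR-155. FGFR3 also passed with miR-372 (0.0101) and with miR-373 (0.0168) in that fit. Some miRNA groups of batch 2 did deviate together by number, with all 3 correlations above 0.1: miR-372 with miR-302a (0.243, 0.32 and 0.154), miR-372 with miR-155 (0.336, 0.718 and 0.579), miR-133a with each of miR-155 and miR-372, and miR-302a with miR-155. With the control numbers of batch 1 crossed, the block called 5 with miR-1, 2 with miR-122 and 6 between them. Over all genes it then called 4445, 1622 and 5258 of 14348.

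Of log2 fold changes that were not called, some changed sign. Over the fits without 1 library, the range with miR-122 was -0.0869 to 0.0888 for EGFR, -0.0752 to 0.0344 for MET and -0.055 to 0.0815 for INSR, above 0 for EGFR without empty vector replicate 1, above 0 for MET without that library or miR-122 replicate 1, and below 0 for INSR without empty vector replicate 2. With miR-372 it was -0.0518 (without miR-372 replicate 3) to 0.227 for IGF1R. With the length slope as a covariate, EGFR was 0.101, MET 0.0496 and FGFR3 0.00237 with miR-122. With miR-155, ERBB2 was 0.0548, FGFR1 0.154, FGFR2 0.0284, MET 0.0479 and PDGFRA 0.00285. With miR-302a, ERBB3 was 0.0352 and FGFR2 0.104, and with miR-372 they were 0.0513 and 0.0636. With 2 or 3 libraries a group, differences the size of those of IGF1R and INSR lie near what the spread can show. Levels per length of the longest transcript left the receptors' order as given, save that ERBB2 then stood above FGFR1 in batch 2.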
